A study of Homo sapiens with 6 samples.

Results

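BH3-only proteins are the sensors of the mitochondrial path to cell death. Each carries a short BCL2 homology 3 (BH3) helix that fits into a groove of the anti-apoptotic guardians BCL2, BCL-XL (encoded by BCL2L1), BCL-W (BCL2L2) and MCL1, and some also switch on the effectors BAX and BAK directly. Once active, the effectors open the outer mitochondrial membrane, and released cytochrome c assembles the apoptosome, which starts the caspases. The genes described here are the 8 members BMF, BBC3, BCL2L11, PMAIP1, BIK, BAD, BID and HRK, chosen by gene symbol from the 24305 genes of the deposited table, and all 8 were found and passed the filter on low counts.

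They were measured by RNA sequencing in DU 145, an established human line of castration-resistant prostate cancer that the series design presents as its model of deficient homologous recombination repair. The 3 talazoparib libraries came from cells treated for 48 h with talazoparib, a drug that blocks and traps the DNA repair enzymes PARP1 and PARP2, and the 3 control libraries from cells held for 48 h in a control labelled "DMOS", presumably the solvent DMSO misspelt. The design names 5, 10 and 20 µM of the drug, and the sample labels do not say which was sequenced. No label says that the libraries are separate cultures, so every p-value rests on a spread between libraries that may be technical only. As background, DU 145 is known to lack BAX protein.

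The libraries held 39123997 to 39585727 counts each. Levels are given as CPM, counts scaled to a common library size after TMM, which corrects that size for composition. Changes are log2 fold changes of talazoparib over control from edgeR's quasi-likelihood test, with a Benjamini-Hochberg adjusted p over all genes tested and a threshold of 0.05. Of 14452 genes tested, 56.7% passed, with 26.8% higher and 29.9% lower. The change of all genes followed GC content: its median was -0.73 in the decile of lowest GC and 0.43 in the decile of highest GC. Each member is therefore also given with the trend over GC content and length removed, a fit in which 44.2% of 13718 genes passed, 22.0% higher and 22.2% lower. Whether that trend came from library preparation or from the cells was not tested. Markers of epithelial cells summed to 1174 to 1326 CPM in talazoparib libraries and 1046 to 1308 CPM in control libraries, while the leukocyte genes PTPRC and CD3E and the fibroblast gene DCN had no count. Most of the epithelial sum was KRT8 and KRT18. KRT19 averaged 91.4 CPM with talazoparib and 41.8 CPM in control, and CDH1 0.798 and 1.37 CPM. Summed fibroblast markers were at 17.6 to 22.2 CPM with talazoparib and 23.6 to 25.8 CPM in control, mostly COL3A1 (means 16.8 and 22.1 CPM). Leukocyte markers were at 1.67 to 2.43 CPM with talazoparib and 0.959 to 1.24 CPM in control, mostly CD14 (means 1.86 and 0.918 CPM). Both sums thus differed between groups mainly through COL3A1 and CD14, and their part in the results was not tested. In bulk RNA, fewer cells of a type and less RNA per cell cannot be told apart.

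The stretch that makes these genes a family is the code for the BH3 helix, shown for all 8 so that the shared and differing bases can be seen. Each line gives 45 coding bases read 5′ to 3′ from GENCODE 29 transcripts on GRCh38, and capitals mark the codons of the conserved leucine and of the small residue and aspartate that follow it.
BMF: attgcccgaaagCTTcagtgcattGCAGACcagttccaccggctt
BBC3: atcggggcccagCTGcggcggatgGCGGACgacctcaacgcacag
BCL2L11: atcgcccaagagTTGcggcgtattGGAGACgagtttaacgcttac
PMAIP1: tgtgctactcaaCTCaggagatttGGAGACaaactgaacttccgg
BIK: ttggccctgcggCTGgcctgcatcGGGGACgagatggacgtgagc
BAD: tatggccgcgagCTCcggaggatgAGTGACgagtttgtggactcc
BID: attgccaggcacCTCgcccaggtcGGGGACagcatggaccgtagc
HRK: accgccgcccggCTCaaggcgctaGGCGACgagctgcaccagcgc

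The aspartate codon was GAC in every member, whereas the leucine codon and the residue before the aspartate varied. Identity between pairs of these stretches ran from 37.8% for BAD and BID to 62.2% for BBC3 and BCL2L11 and for BIK and BID. The stretches lie at chr15:40104192-40104236 on the minus strand for BMF, chr19:47226576-47226620 minus for BBC3, chr2:111150091-111150135 plus for BCL2L11 and chr18:59902661-59902705 plus for PMAIP1. Those of the other members are at chr22:43127704-43127748 plus for BIK, chr11:64271619-64271663 minus for BAD, chr22:17739412-17739456 minus for BID and chr12:116881167-116881211 minus for HRK. Not every coding transcript holds it: 4 of 9 do for BMF and 7 of 16 for BCL2L11, against 1 of 1 for BIK and for HRK. The counts are per gene, so a change reported here covers transcripts with and without the helix.

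Talazoparib libraries had more RNA of 4 of the 8 members: BMF (3.65-fold), BBC3 (1.91-fold), BAD (1.52-fold) and BID (1.21-fold). No member was lower. A count of 4 of 8 stands against 26.8% of all genes tested that passed as higher. The members and the gene lists below were chosen with earlier results of these data known. Counts set beside the shares of all genes are therefore descriptions, with no test. The members' median log2 fold change was 0.37, against 0.0015 over all genes tested. In 5 members, namely those 4 and BIK, every talazoparib library lay above every control library, which held for 31.6% of all genes tested. Over all genes the groups did not overlap in 64.4%, and in 32.8% talazoparib lay below, which no member did. With the GC and length trend removed 5 of the 8 members passed as higher and none as lower. In that fit 22.0% of all genes passed as higher and 22.2% as lower. The set was then BMF, BBC3, BCL2L11, PMAIP1 and BID, and the median of the 8 members was 0.31 against -0.0032 over all genes. BAD left the set and BCL2L11 and PMAIP1 entered it, so only BMF, BBC3 and BID passed in both fits. When single libraries were left out, BBC3 lost its call only with the trend removed, and BID lost calls in both fits.

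**Figure D1:**
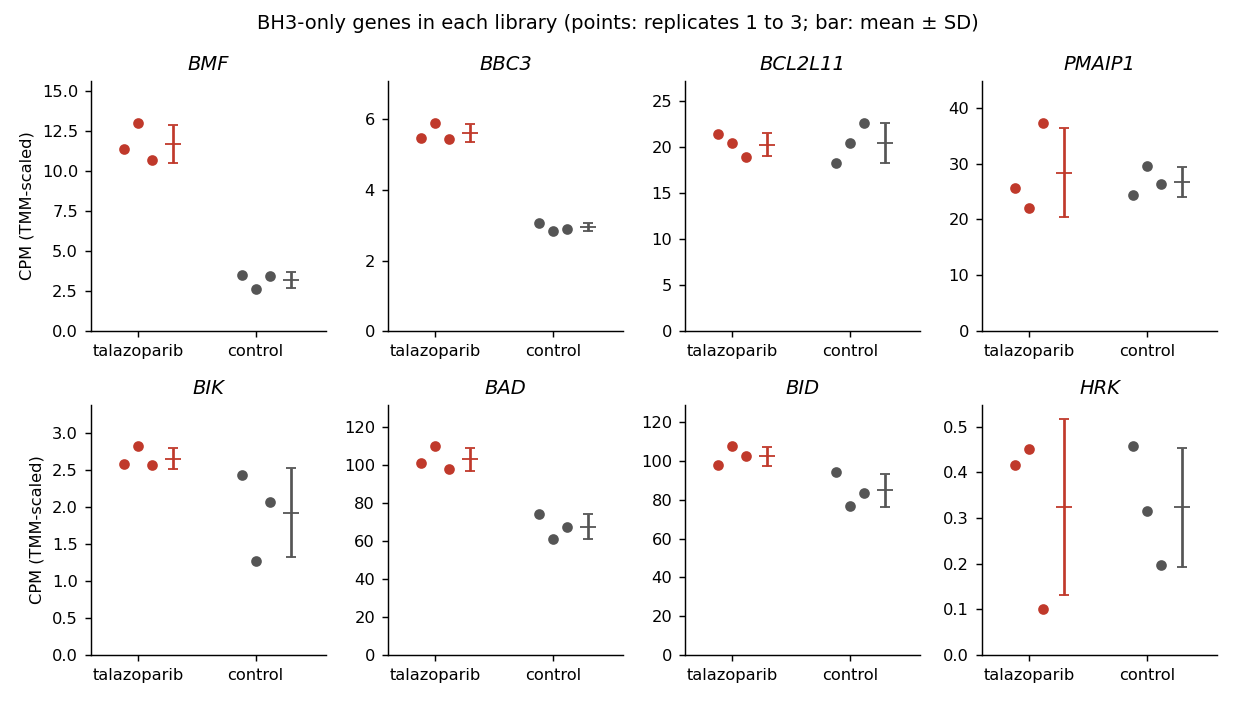
CPM of each BH3-only gene in the 3 talazoparib libraries (left in each panel) and the 3 control libraries (right), with points for libraries and bars for mean and SD. The points of BMF, BBC3, BIK, BAD and BID do not overlap between groups, and those of BCL2L11, PMAIP1 and HRK do.

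BMF (BCL2-modifying factor; ENSG00000104081.13, chr15:40087890-40108892, minus strand) encodes a sensor held on the myosin V motor through the dynein light chain DYNLL2 until it is set free, and it can be induced when cells lose attachment. It had 11.4, 13.0 and 10.7 CPM in talazoparib libraries 1 to 3, against 3.53, 2.63 and 3.44 CPM in control libraries 1 to 3. All 3 treated libraries were high and close together, and the lowest of them lay far above the highest control. The means were 11.7 ± 1.19 CPM with talazoparib and 3.20 ± 0.497 CPM in control (SD, n = 3 each), resting on 421 to 489 counts per talazoparib library and 108 to 140 per control library. The antisense gene BMF-AS1 covers 461 of the exon bases of BMF, or 8.46%. BMF-AS1 was not found under that symbol among the counted genes, so its own level was not analysed here. The strand setting of the counting is not known, so its reads on the shared bases could have been counted as BMF. How many were was not tested.

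The log2 fold change of BMF was 1.87 ± 0.16 (SE; 95% interval 1.51 to 2.23) with an edgeR adjusted p of 9.2e-06. It ranked 52 among the rises of the 14452 genes tested, and 2.75% of these genes passed with a rise of at least 2-fold. The BMF transcript is 54.8% GC, genes of that decile had a median change of 0.24, and its trend-removed change was 1.69 ± 0.13 with an edgeR adjusted p of 5.77e-06. Leaving out any 1 library gave 1.71 to 1.93 as counted and 1.57 to 1.76 with the trend removed, past the threshold each time.

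BMF's nearest patterns among 10108 genes with a mean of at least 5 CPM were sought by the Euclidean distance between log2 CPM deviations over the 6 libraries, a description with no test. ADORA1, the adenosine A1 receptor, was nearest at a distance of 0.21 and averaged 56.0 ± 6.25 CPM with talazoparib and 15.9 ± 1.25 CPM in control. TNFRSF9, the T-cell costimulatory receptor 4-1BB, followed at 0.32, then SYT12, a synaptotagmin, at 0.35, SPINK4, a Kazal-type protease inhibitor gene, at 0.43 and FAM83A at 0.53. Their log2 fold changes as counted were 1.82, 1.79, 1.93, 1.64 and 1.47, in that order. With the trend removed they ran from 1.18 for SPINK4 to 2.36 for TNFRSF9, on either side of BMF at 1.69.

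BBC3 (PUMA; ENSG00000105327.17, chr19:47220822-47232766, minus strand) encodes a sensor that binds all the main guardians and can activate BAX and BAK. It had 5.47, 5.90 and 5.45 CPM in talazoparib libraries 1 to 3, against 3.07, 2.85 and 2.90 CPM in control libraries. The groups were tight and did not overlap. The log2 fold change of BBC3 was 0.93 ± 0.16 (95% interval 0.58 to 1.28) with an edgeR adjusted p of 0.000402. Leaving out any 1 library gave 0.87 to 0.95 as counted, past the threshold each time (edgeR adjusted p 0.000886 to 0.00577). Its transcript is the most GC-rich of the 8 at 69.7%, and in its GC decile 66.2% of genes were higher and the median change was 0.43. With the trend removed the change of BBC3 was 0.43 ± 0.14 with an edgeR adjusted p of 0.023. That call was lost whichever library was left out, with adjusted p between 0.0519 and 0.0674 and changes of 0.38 to 0.44.

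BCL2L11 (BIM; ENSG00000153094.22, chr2:111119378-111168447, plus strand) encodes a sensor that binds all the main guardians, can activate BAX and BAK directly and sits on microtubules through DYNLL1. Its CPM values were 21.5, 20.4 and 18.9 with talazoparib and 18.3, 20.4 and 22.7 in control. The groups overlapped fully, and the change was -0.013 ± 0.12 (95% interval -0.26 to 0.24) with an edgeR adjusted p of 0.928. BCL2L11 is 45.7% GC and has a deposited length of 7702 nt, and genes of its GC decile and of its length decile had median changes of -0.34 and -0.46. With the trend removed it had 24.5, 25.0 and 22.2 CPM in talazoparib libraries and 16.9, 16.5 and 18.6 CPM in control libraries, which no longer overlapped. That change was 0.46 ± 0.08 with an edgeR adjusted p of 0.00105, and it held in all 6 fits without 1 library, at 0.43 to 0.52. The long noncoding RNA MIR4435-2HG runs antisense over 727 of the exon bases of BCL2L11, or 10.9%, and averaged 49.4 ± 2.23 CPM with talazoparib and 49.1 ± 2.22 CPM in control. The strand setting of the counting is not given in the sources used here, so reads of the shared bases cannot be told apart.

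PMAIP1 (NOXA; ENSG00000141682.11, chr18:59899948-59904306, plus strand) encodes a sensor that binds mainly MCL1 and hastens its breakdown. It had 25.7, 22.1 and 37.3 CPM in talazoparib libraries 1 to 3, against 24.3, 29.5 and 26.3 CPM in control libraries. Talazoparib library 3 was the highest and talazoparib library 2 the lowest of the 6, so the groups overlapped. As counted the change was 0.087 ± 0.17 (95% interval -0.28 to 0.46) with an edgeR adjusted p of 0.679, and it was -0.16 without talazoparib library 3. PMAIP1 has the lowest GC content of the members, 37.2%, and in its GC decile 66.0% of genes were lower, 1.17% were higher and the median change was -0.73. With the trend removed its values were 31.5, 34.0 and 38.7 CPM with talazoparib and 21.2, 21.8 and 20.8 CPM in control, a change of 0.71 ± 0.08 with an edgeR adjusted p of 6.37e-05. The treated libraries then all stood above the controls, and the call held without any 1 library, at 0.62 to 0.78. Removing the GC trend alone gave 0.83 (edgeR adjusted p 4.41e-05), whereas removing the length trend alone gave 0.17, which did not pass (0.327). The deposited length of PMAIP1 is 4248 nt, while GENCODE 29 gives it 2235 exon bases.

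**Figure D2:**
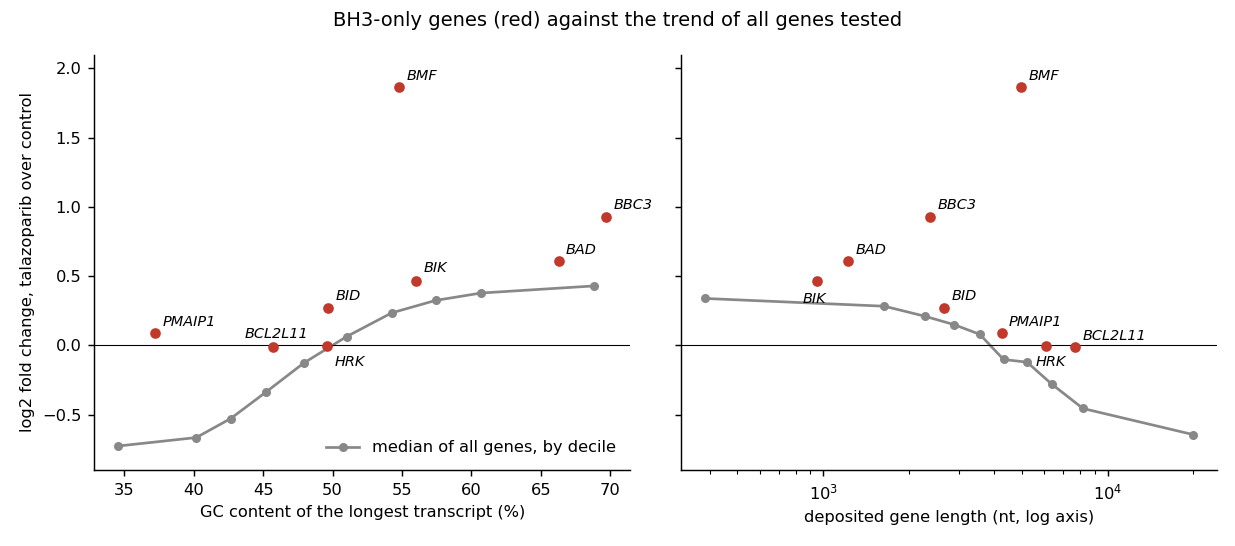
Log2 fold change, talazoparib over control, against GC content of the longest transcript (left, %) and deposited gene length (right, nt, log axis), with red points for the 8 BH3-only genes and grey points for the median of all genes by decile. BMF stands at 1.87 far above the grey line in both panels, while PMAIP1 is near 0 where the median of its GC decile is -0.73.

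BAD (ENSG00000002330.13, chr11:64269830-64284704, minus strand) encodes a sensor kept in the cytosol by 14-3-3 proteins when AKT and other kinases phosphorylate it, and it binds BCL2, BCL-XL and BCL-W. Its CPM values were 101, 110 and 98.1 with talazoparib and 74.4, 61.1 and 67.2 in control. Every treated library was above every control. The change was 0.61 ± 0.09 (95% interval 0.41 to 0.80) with an edgeR adjusted p of 0.000141, and 0.51 to 0.64 without any 1 library. BAD is short, at 1224 nt, and 66.3% GC, and with both trends removed it came to 82.9, 84.3 and 82.3 CPM in talazoparib libraries and 82.6, 81.8 and 85.9 CPM in control libraries. On that scale the groups overlapped, with a change of -0.0043 ± 0.05 (95% interval -0.11 to 0.10) and an edgeR adjusted p of 0.951. Removing the GC trend alone left 0.15 (edgeR adjusted p 0.0456), and removing the length trend alone left 0.32 (0.00542).

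The gene GPR137 runs antisense to BAD and covers 404 of the exon bases of BAD, or 23.7%. GPR137 averaged 56.0 ± 4.64 CPM with talazoparib and 43.0 ± 5.74 CPM in control, a change of 0.38 ± 0.11 with an edgeR adjusted p of 0.00826. That call was lost without control library 2 (0.29, adjusted p 0.0599) or 3 (0.29, 0.0717), and with the trend removed the change was -0.045 (0.63). How reads of the shared bases were assigned is not stated in the sources used here. They could have been counted for either gene or for neither, and how much this mattered was not tested.

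BID (ENSG00000015475.18, chr22:17734138-17774770, minus strand) links death receptors to mitochondria: caspase-8 cuts its product, and the cut form activates BAX and BAK. It had 97.7, 108 and 102 CPM in talazoparib libraries, against 94.2, 77.0 and 83.3 CPM in control libraries. The groups did not overlap, though talazoparib library 1 and control library 1 were close. The change was small, 0.27 ± 0.09 (95% interval 0.08 to 0.46), with an edgeR adjusted p of 0.0183. It no longer passed without talazoparib library 2 (0.24, adjusted p 0.0506), without control library 2 (0.18, 0.120) or without control library 3 (0.23, 0.101). With the trend removed it was 0.20 ± 0.07 with an edgeR adjusted p of 0.0303. That call held only without talazoparib library 1 or control library 1, and was lost without talazoparib library 2 (0.17, adjusted p 0.097) or 3 (0.19, 0.0563) and without control library 2 (0.14, 0.148) or 3 (0.18, 0.116). BID also did not pass with the length trend alone removed (0.18, adjusted p 0.106).

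BIK (ENSG00000100290.2, chr22:43110748-43129712, plus strand) encodes a sensor of the endoplasmic reticulum membrane. BIK had 2.58, 2.82 and 2.56 CPM with talazoparib and 2.44, 1.27 and 2.07 CPM in control. The control libraries spread widely at 52 to 96 counts each, against 99 to 106 in talazoparib libraries, and the groups did not overlap. The change was 0.46 ± 0.24 (95% interval -0.07 to 0.99) with an edgeR adjusted p of 0.122, and it was -0.029 with the trend removed. As counted it was 0.20 without control library 2, the lowest, and 0.63 without control library 1, past the threshold in neither. HRK (Harakiri; ENSG00000135116.9, chr12:116856144-116881441, minus strand), known from neurons and a binder of BCL-XL, was close to the limit of detection at 16, 17 and 4 counts with talazoparib and 18, 13 and 8 counts in control. At that depth its change of -0.0038 ± 0.55 had a 95% interval of -1.19 to 1.18, so a change of 2-fold either way was not detectable.

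**Figure D3:**
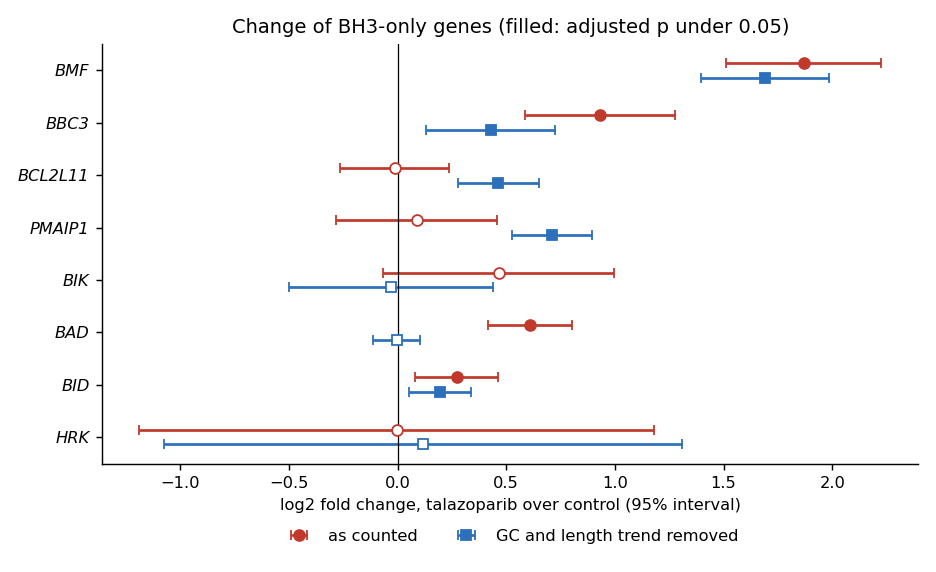
Log2 fold change of each BH3-only gene, talazoparib over control, with its 95% interval, as counted (red circles) and with the GC and length trend removed (blue squares); filled symbols passed an adjusted p of 0.05. BMF, BBC3 and BID passed in both fits, with BMF furthest from 0, BAD only as counted, and BCL2L11 and PMAIP1 only with the trend removed.

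Levels can be compared between genes only per length, for which FPKM (the count divided by the deposited length and by the library's total count) was used. BAD was the most abundant member at 82.0 ± 3.15 FPKM with talazoparib and 56.5 ± 4.05 FPKM in control, followed by BID at 37.5 ± 1.65 FPKM with talazoparib and 32.6 ± 2.45 FPKM in control. PMAIP1 came next at 6.54 ± 2.0 FPKM with talazoparib and 6.46 ± 0.803 FPKM in control, well below BID in every library. BIK, BCL2L11, BBC3 and BMF lay close together with talazoparib, at 2.72 ± 0.10, 2.56 ± 0.126, 2.30 ± 0.0682 and 2.29 ± 0.183 FPKM. In control these were 2.06 ± 0.597, 2.73 ± 0.337, 1.27 ± 0.0166 and 0.660 ± 0.0899 FPKM. BMF thus stood below the other 3 in control libraries and reached the level of BBC3 with talazoparib, the difference of their means there being smaller than their SDs. HRK was lowest, at 0.0512 ± 0.03 FPKM with talazoparib and 0.0541 ± 0.0207 FPKM in control.

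The 8 members summed to 132, 139 and 137 FPKM in talazoparib libraries, against 108, 96.2 and 103 FPKM in control libraries. All treated sums were above all control sums. BAD supplied 25.4 FPKM of that difference, and its own change was near 0 with the trend removed, whereas BMF, with the largest fold change, supplied 1.63 FPKM. BAD made up 60.3 ± 1.57% of the summed FPKM with talazoparib and 55.2 ± 0.642% in control, and BMF 1.68 ± 0.111% with talazoparib and 0.643 ± 0.0602% in control. BID fell as a share, to 27.6 ± 0.499% in talazoparib libraries against 31.8 ± 0.558% in control libraries, although its own level was higher.

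**Figure D4:**
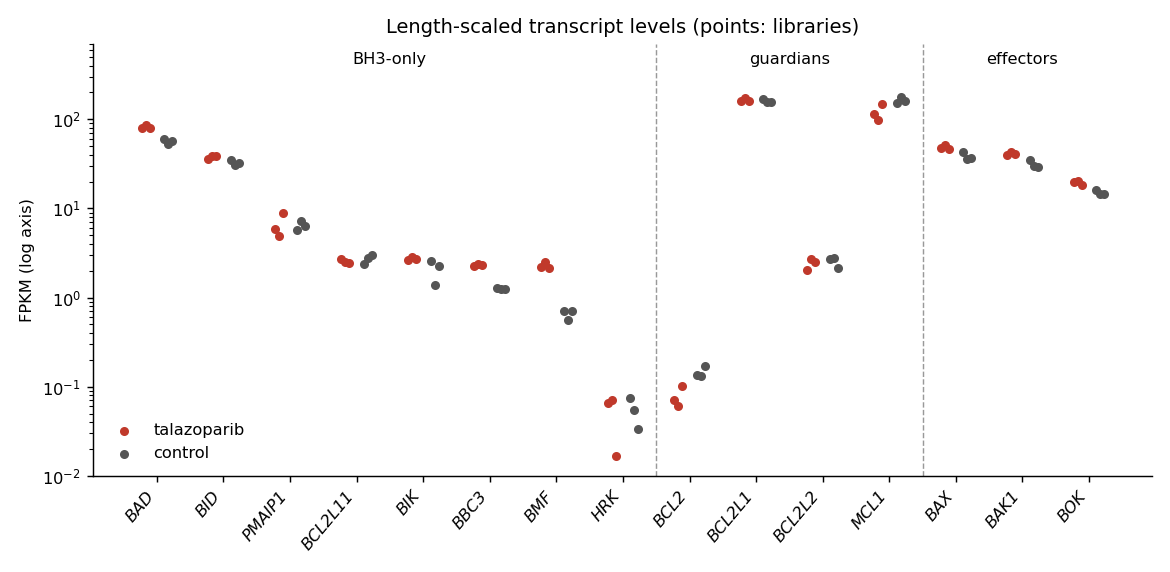
FPKM (log axis) of the 8 BH3-only genes and of the guardians and effectors in talazoparib libraries (left of each pair) and control libraries (right), with 1 point per library. BAD and BID are the most abundant BH3-only transcripts, and BCL2L1 and MCL1 the most abundant of the genes shown.

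The sequences just upstream of the start sites of BMF and BCL2L11 are shown because BMF had the largest change and BCL2L11 is a textbook target of the forkhead factor FOXO3. Each is the 250 bases before a RefSeq start site on GRCh38.p14, at chr15:40108880-40109129 on the minus strand for BMF, where another start site is annotated as well, and chr2:111120664-111120913 on the plus strand for BCL2L11. Capitals mark matches to the forkhead letters GTAAACA and the GC box letters GGGCGG, searched on both strands.
BMF: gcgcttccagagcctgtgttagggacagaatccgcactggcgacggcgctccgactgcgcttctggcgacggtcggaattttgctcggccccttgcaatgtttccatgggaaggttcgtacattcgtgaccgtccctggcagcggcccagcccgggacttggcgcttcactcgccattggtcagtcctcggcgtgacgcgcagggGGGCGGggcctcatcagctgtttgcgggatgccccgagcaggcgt
BCL2L11: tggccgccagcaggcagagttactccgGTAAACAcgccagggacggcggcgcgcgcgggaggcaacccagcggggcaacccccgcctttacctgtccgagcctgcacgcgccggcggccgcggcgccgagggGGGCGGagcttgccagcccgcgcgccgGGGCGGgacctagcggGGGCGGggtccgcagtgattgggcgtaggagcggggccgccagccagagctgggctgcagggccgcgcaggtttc

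The BCL2L11 window held 1 forkhead match, which 2.98% of 35116 RefSeq promoter windows of this length hold, and the BMF window held none. Both held GC boxes, as do 42.6% of all windows. The forkhead gene FOXO3 itself was lower, at 0.802 ± 0.0907 FPKM with talazoparib and 1.57 ± 0.125 FPKM in control, a change of -0.90 ± 0.12 with an edgeR adjusted p of 9.01e-05 and of -0.44 with the trend removed. With the length trend alone removed it was -0.19 and did not pass (edgeR adjusted p 0.18). Of 16 tested transcription factors known to act on BH3-only genes, 8 were higher and 4 lower as counted, and 7 higher and 2 lower with the trend removed. Over all genes tested the shares were 26.8% higher and 29.9% lower as counted, and 22.0% and 22.2% with the trend removed. DDIT3 (CHOP), a stress factor that can induce BCL2L11 and BBC3, was at 9.15 ± 0.963 FPKM with talazoparib and 5.46 ± 0.758 FPKM in control, a change of 0.82 ± 0.16 (edgeR adjusted p 0.000844) and of 0.61 with the trend removed. E2F1, the cell-cycle factor, changed by 0.70 as counted and 0.24 with the trend removed, past the threshold in both fits. HIF1A, the hypoxia factor, changed by -0.92 and CEBPB by 0.56 as counted, and their trend-removed values of -0.26 and 0.033 did not pass. TP63 and TP73 had too few counts to test.

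Among the guardians that BH3-only proteins bind, 2 of 4 tested were lower and none higher as counted, with a median of -0.17. The shares over all genes tested were 29.9% lower and 26.8% higher. MCL1 had 461, 406 and 590 CPM in talazoparib libraries, against 598, 661 and 612 CPM in control libraries. Talazoparib library 3 came close to control library 1, the other treated libraries were lower, and no values overlapped. The change of MCL1 was -0.36 ± 0.12 with an edgeR adjusted p of 0.0212. The call was lost without talazoparib library 1 (-0.32, adjusted p 0.0756) or 2 (-0.25, 0.053) and without control library 2 (-0.35, 0.0749) or 3 (-0.41, 0.053), and the change was -0.076 with the trend removed. That trend-removed value depended on the library left out: it was -0.21 and passed without talazoparib library 3 (edgeR adjusted p 0.00638), was 0.0096 without talazoparib library 2, and did not pass in the other 5 fits. BCL2 was scarce at 0.0782 ± 0.0218 FPKM with talazoparib and 0.146 ± 0.0217 FPKM in control, a change of -0.83 ± 0.28 with an edgeR adjusted p of 0.0239. It did not pass without talazoparib library 1 (-0.77, adjusted p 0.0728) or 2 (-0.70, 0.0802), without control library 3 (-0.74, 0.0936) or with the trend removed (-0.24).

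BCL2L1, which encodes the guardian BCL-XL, was the most abundant with MCL1, at 166 ± 6.74 FPKM with talazoparib and 162 ± 8.25 FPKM in control. Its change was 0.11 ± 0.08 as counted (edgeR adjusted p 0.263) and -0.24 with the trend removed (0.00116). Its sign thus turned with the fit, and only the trend-removed value passed. BCL2L2 came to 2.43 ± 0.342 FPKM with talazoparib and 2.54 ± 0.334 FPKM in control, with an edgeR adjusted p of 0.949. BCL2A1 and BCL2L10 had too few counts to test, at 0 to 2 counts in talazoparib libraries and 0 to 7 in control libraries. The guardians summed to 288 ± 22.4 FPKM with talazoparib and 327 ± 8.26 FPKM in control, above the sum of the BH3-only members in every library.

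The effectors were all higher as counted, 3 of 3, and none passed with the trend removed. Over all genes 26.8% were higher as counted, and 44.2% passed in either direction with the trend removed. In the GC decile of BAX and BAK1 54.4% of genes were higher as counted, and in that of BOK 66.2%. BAX was at 48.7 ± 2.63 FPKM with talazoparib and 38.5 ± 3.55 FPKM in control, a change of 0.41 ± 0.10 (edgeR adjusted p 0.00371) that became -0.10 with the trend removed. BAK1 changed by 0.46 ± 0.09 and BOK by 0.44 ± 0.10 as counted, against 0.028 and -0.023 with the trend removed. Among other proteins with a BH3 or BH3-like stretch, 1 of 6 tested was higher and 1 lower as counted. With the trend removed 2 were higher and none lower. All genes tested had 26.8% higher and 29.9% lower as counted, and 22.0% and 22.2% with the trend removed. MOAP1, a partner of BAX, changed by 0.32 as counted and 0.22 with the trend removed and passed both times. It did not pass with the length trend alone removed (0.19, edgeR adjusted p 0.0792), nor with both trends removed and without control library 3 (0.21, 0.0552). HUWE1, a ubiquitin ligase of MCL1, changed by -0.56, and its -0.13 with the trend removed did not pass except without control library 1 (-0.15, edgeR adjusted p 0.0457). BECN1 and BNIP3, which act in autophagy and mitophagy, had values of -0.11 and -0.028 as counted and did not pass. With the trend removed BNIP3 was -0.28 in all 6 libraries, not past the threshold, and -0.45 without talazoparib library 3 (edgeR adjusted p 0.000114). BNIP3 also passed as lower with the length trend alone removed (-0.27, edgeR adjusted p 0.0427), and with both trends removed and a term for replicate number (-0.30, 0.0432). BECN1 passed as higher with the GC trend alone removed (0.16, edgeR adjusted p 0.0482) and as lower with the length trend alone removed (-0.26, 0.0171). BCL2L14 and BCL2L15 had too few counts to test.

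Of 20 tested genes whose products modify or tether BH3-only proteins, 6 were higher and 6 lower, and with the trend removed 6 were higher and 8 lower. Over all genes tested 26.8% were higher and 29.9% lower as counted, and 22.0% and 22.2% with the trend removed. The kinase MAPK8 (JNK1), which can free BIM and BMF from their tethers, changed by -1.14 as counted and by -0.37 with the trend removed, passing in both. BTRC, which takes part in the breakdown of BIM, did likewise at -0.84 and -0.34. USP9X, a deubiquitinase that protects MCL1, had the largest fall of the genes named here, at 2.15 ± 0.34 FPKM with talazoparib and 6.26 ± 1.56 FPKM in control, a change of -1.46 ± 0.16 (edgeR adjusted p 3.61e-05) and of -0.48 with the trend removed. AKT1, a kinase of BAD, changed by 0.45 as counted, while 0.083 with the trend removed did not pass. TRIM2, a ligase for BIM, had too few counts to test, and GZMB was not analysed here.

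The tethers DYNLL1 and DYNLL2 had values of -0.0055 and 0.053 as counted and did not pass, and with the trend removed DYNLL1 was lower (-0.39) and DYNLL2 higher (0.34). CASP8, which cuts BID, changed by 0.11 as counted and by 0.56 with the trend removed, past the threshold only then. MTCH2, the mitochondrial receptor for cut BID, did likewise at 0.077 and 0.57. TRIB3, a pseudokinase that inhibits AKT, passed in both fits, at 0.84 and 0.43.

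In the apoptosome list 2 of 9 genes were higher and 3 lower as counted, and 2 higher and none lower with the trend removed. The shares over all genes tested were 26.8% higher and 29.9% lower as counted, and 22.0% and 22.2% with the trend removed. APAF1, its scaffold, was at 0.998 ± 0.349 FPKM with talazoparib and 2.27 ± 0.431 FPKM in control, a change of -1.11 ± 0.21 (edgeR adjusted p 0.000926), and its trend-removed change of -0.38 did not pass. Without talazoparib library 3 that change was -0.61 and passed (edgeR adjusted p 0.00135). CASP9, its caspase, changed by 0.43 and 0.27 and passed in both, but the trend-removed call was lost without talazoparib library 1 (0.25, edgeR adjusted p 0.0601) and without control library 2 (0.21, 0.0855) or 3 (0.27, 0.0521). HTRA2, which counters caspase inhibitors, changed by 0.38 as counted, and its -0.062 with the trend removed did not pass. XIAP, a caspase inhibitor, turned from lower (-0.67) as counted to 0.20, not past the threshold, with the trend removed.

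**Figure D5:**
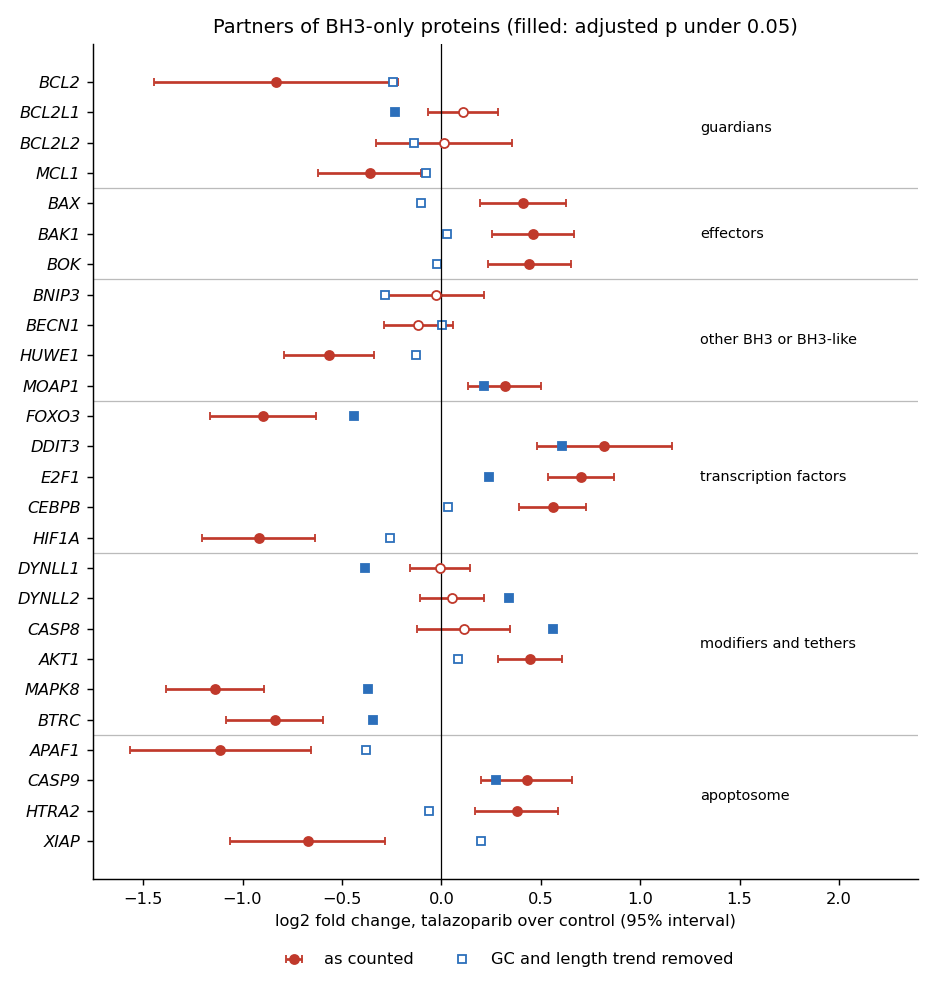
Log2 fold change, talazoparib over control, of named partners of the BH3-only proteins, as counted with 95% intervals (red circles) and with the GC and length trend removed (blue squares); filled symbols passed an adjusted p of 0.05. BAX, BAK1 and BOK lie to the right of 0 as counted and near 0 with the trend removed, while MAPK8 and BTRC lie to the left in both.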

How the data were processed

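Per the submitters' processing notes, HISAT2, HTSeq, Cufflinks and Trimmomatic were used with GRCh38. Which versions, annotation and strand setting is not stated in the sources used here. The deposited files hold the authors' whole-number counts per gene and the authors' FPKM, which equal the count over a gene length and the column total and so add no measurement. The 8 members and all lists were chosen with earlier results of these data known.

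Counts were tested with edgeR 4.0.16 (quasi-likelihood, TMM, filterByExpr with a minimum count of 10, Benjamini-Hochberg adjustment over all genes) in R 4.3.3, on all 6 libraries, without a replicate term. SEs are the change over the square root of F. The trend-removed fit used natural splines (5 degrees of freedom) of the GC content of the longest GENCODE 29 transcript and of the deposited length as an offset for each library, for the 13718 genes with both. It assumes that the trend is no part of the response, and it shifts genes with extreme GC most. DESeq2 1.42.0, limma 3.58.1 on log2(FPKM + pseudocount), other scalings and filters and leaving out each library were alternatives. The edgeR fit was tested on simulated counts. The genes named are the members, the guardians, the effectors, of each other list the 4 genes with the smallest adjusted p and those not tested, DYNLL1, DYNLL2, CASP8, DDIT3 and FOXO3, and the 5 genes nearest to BMF, except that some items are not reported here. BH3 stretches were searched for in the coding sequences of the APPRIS principal transcripts. BID has another in-frame match, and the last was printed. Intervals cover the spread between libraries.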

Additional observations from a re-analysis of the deposited data

How the results depend on the processing

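The count of genes called was 8200 as counted, and it was 5141 with the replicate block and the GC and length trend removed together. It ran from 6353 to 8549 without 1 library. The BH3-only count stayed at 3 to 6 higher and none lower in every setting tried, 3 to 4 without 1 library, and the pathway count at 32 to 43 without 1 library. With the trend removed and 1 library left out, an alternative added after seeing the data, the count of all genes was 4460 to 5999, the BH3-only count 3 to 4 and the pathway count 25 to 33. Same-numbered libraries did not deviate together (r of -0.09, -0.17 and 0.0039 for numbers 1, 2 and 3), so the numbers were not treated as pairs; with the replicate block there were 7580 calls, of which 4 were BH3-only genes. Signs turned with these trends, and the cause was not tested. Other than BECN1, none of the genes that follow passed in opposite directions. BCL2L11 came to 0.46 with both removed, 0.29 with GC, 0.42 with length, 0.46 with the block as well, and 0.43 to 0.52 without 1 library, against -0.13 to 0.035 as counted. BAD came to -0.0043, to -0.0041 with the block, and to -0.023 to 0.013 without 1 library, against 0.51 to 0.64 as counted. With both trends removed, with GC alone where it turned and with the block, BCL2L1 gave -0.24, -0.19 and -0.24, BOK -0.023, -0.015 and -0.023, HTRA2 -0.062, -0.0055 and -0.061, and XIAP 0.20, 0.040 and 0.19. BAX gave -0.10 with both removed and -0.10 with the block. Over all fits without 1 library, trend-removed ones included, the ranges were -0.26 to 0.14 for BCL2L1, -0.52 to 0.0096 for MCL1, -0.13 to 0.47 for BAX, -0.013 to 0.52 for BAK1, -0.045 to 0.50 for BOK, -0.096 to 0.44 for HTRA2 and -0.88 to 0.28 for XIAP. HUWE1 gave 0.23 with the length trend removed, not past the threshold (edgeR adjusted p 0.0602). BECN1 passed as higher with the GC trend removed (0.16, edgeR adjusted p 0.0482) and as lower with the length trend removed (-0.26, 0.0171). It was also lower with limma on log2(FPKM + 1) at a mean FPKM of at least 1 (-0.18, limma adjusted p 0.0306). BID did not pass with limma on log2(FPKM + 1) (0.20, adjusted p 0.063), on log2(FPKM + 0.1) (0.20, 0.0604), with the length trend removed (0.18, 0.106) or with trend and block (0.20, 0.0676), and BCL2 and MCL1 did not pass with limma at either pseudocount. BBC3 with trend and block had an adjusted p of 0.0523. HRK was not tested at a minimum of 1 CPM, and neither HRK nor BCL2 was tested with limma at a mean FPKM of at least 1. Depth limits HRK, BIK and BCL2 most.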
